A study of Oryctolagus cuniculus with 9 samples.

Results

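Carbonic anhydrases and aquaporins were followed across 9 RNA-seq libraries of rabbit urethral tissue. The 9 genes were chosen by symbol from the deposited count table. They are the 5 carbonic anhydrases CA2, CA4, CA12, CA13 and CA14 and the 4 aquaporins AQP1, AQP3, AQP4 and AQP5, out of 28788 gene rows. All 9 have a row, and 8 passed the filter on low counts that left 17102 genes for testing. CA14 did not pass. The list was picked with earlier results of the same comparisons known, in which CA12 was among the genes with the largest difference between S9 and S6. Which measured values put the other genes on the list is not given in the sources used here, so all levels and differences below describe the genes, and the number that passed a test supports nothing further.

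Carbonic anhydrases are zinc enzymes that convert carbon dioxide and water into bicarbonate and a proton, and so help cells to hold their own pH and that of the fluid around them. Some family members work in the cytosol, while CA4, CA12 and CA14 act on the outer face of the membrane. Aquaporins are membrane channels for water, and a subset, the aquaglyceroporins, also passes glycerol. In epithelia that face urine or secrete fluid, both families take part in water and acid-base handling, and AQP1 is also abundant in endothelium and red blood cells.

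The study concerns a hydrogel stent for urethral repair, and sequencing was used to look into how it acts on healing. The titles give the codes S9, S7 and S6, with 3 libraries each, named here by code and number (S9_1, S9_2, S9_4, S7_2, S7_3, S7_4, S6_2, S6_3 and S6_4). Treatment, time, strain, age and animal are not given for any code, and neither is a control. No label ties a library to an animal of its own, and p-values therefore measure only how these libraries vary, which may be technical. Each library held 35127085 to 36832773 counts. Levels are CPM, counts scaled to a common library size by TMM, where groups are compared, and FPKM where genes of different length are compared. A gene is written as called when its adjusted p from edgeR's quasi-likelihood test, over all 17102 genes, was below 0.05. The libraries also split across the groups: S9_4, S7_3 and S6_4, 1 of each code, had ATP6, a mitochondrially encoded gene, at 21.5 to 25.9 CPM, against 1946 to 3258 CPM in the other 6. The tissue is a mixture of cells, so fewer cells of a type and less RNA per cell cannot be told apart.

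Per length, AQP1 stood far above the other genes. It lay between 252 and 493 FPKM over the 9 libraries, and AQP3, a glycerol-conducting channel of stratified epithelium and urothelium, lay between 20.7 and 50.9 FPKM, so these ranges did not overlap. CA2, the fast cytosolic carbonic anhydrase, followed with a median of 20.3 FPKM and a range of 5.90 to 43.1 that overlapped that of AQP3. AQP4 and CA13 had nearly the same median, 4.81 and 4.71 FPKM. CA12 (median 0.687 FPKM), AQP5 (0.318), CA4 (0.181) and CA14 (0.0215) were lower, but the median hides that CA12 ran from 0 in S9_2 to 34.5 FPKM in S6_4. The ranges of each neighbouring pair in this order overlapped, apart from AQP1 and AQP3.

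AQP1 made up most of the aquaporin transcript in every library, from 83.8% of the summed FPKM of 12 aquaporin genes in S6_2 to 94.9% in S7_2. The carbonic anhydrases were more evenly spread and their order changed between groups. In S9, CA12 took 0.0480%, 0% and 0.180% of the summed FPKM of 15 family genes in S9_1, S9_2 and S9_4. In S7 it took 0.0282%, 2.61% and 1.82% in S7_2, S7_3 and S7_4. In S6 its share was 17.5%, 14.2% and 49.6% in S6_2, S6_3 and S6_4, and in S6_4 it ranked first of the 15. CA2 ranked first in S9_4, in all 3 S7 libraries, in S6_2 and in S6_3, and CA5B, a mitochondrial carbonic anhydrase, ranked first in S9_1 and S9_2.

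**Figure D1:**
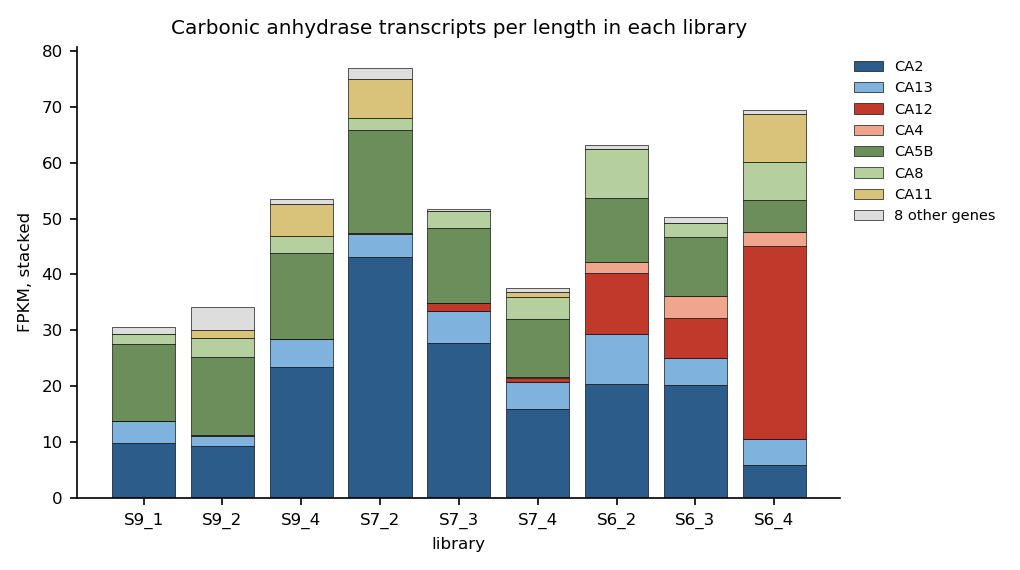
Summed FPKM of 15 carbonic anhydrase genes in each of the 9 libraries, stacked by gene, with S9 libraries at left, S7 in the middle and S6 at right. The CA12 segment is too thin to see in S9 and reaches 34.5 FPKM in S6_4, while CA2 and CA5B make up most of the bar in every S9 and S7 library.

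CA12 and CA4, which both work at the outer face of the membrane, were low in S9 and S7 and clearly present in S6. CA12, a transmembrane enzyme of many epithelia, had 2, 0 and 13 counts in S9_1, S9_2 and S9_4, 3, 185 and 94 counts in S7_2, S7_3 and S7_4, and 1519, 941 and 4713 counts in S6_2, S6_3 and S6_4. In CPM this was 0.0529, 0 and 0.344 in S9, 0.0818, 5.41 and 2.56 in S7, and 41.1, 28.5 and 126 in S6. The S6 libraries lay above all others, S7_2 was as low as the S9 libraries, and the highest library of each group was the one with few mitochondrially encoded counts; the part of that split in the CA12 level was not tested. A count of 0 in S9_2 allows up to 3 counts, or 0.0822 CPM.

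Group means of CA12 were 0.132 ± 0.185 CPM in S9, 2.68 ± 2.66 CPM in S7 and 65.3 ± 53.2 CPM in S6 (SD, n = 3 each). The log2 fold change was -8.90 for S9 against S6 (SE 1.55, edgeR adjusted p = 0.0196), and the summed counts were 15 in S9 and 7173 in S6. Per count sequenced, the S6 total was 482 times that of S9, with an exact 95% interval of 292 to 861 that covers counting error only. S7 against S6 gave -4.61 (SE 1.20, edgeR adjusted p = 0.129), with no overlap between the libraries. S9 against S7 gave -4.29 (SE 1.41, edgeR adjusted p = 0.538), and S7_2 lay within the S9 range.

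CA4 is held to the membrane by a lipid anchor and is known from capillary endothelium and several epithelia, and in humans its transcript is also found in neutrophils. It had 0, 7 and 0 counts in S9_1, S9_2 and S9_4, 1, 0 and 7 counts in S7_2, S7_3 and S7_4, and 72, 150 and 98 counts in S6_2, S6_3 and S6_4. The levels were 0, 0.192 and 0 CPM in S9, 0.0273, 0 and 0.191 CPM in S7, and 1.95, 4.54 and 2.63 CPM in S6. Of the 6 libraries of S9 and S7, 4 held 0 or 1 counts and the other 2 held 7, while each S6 library had at least 72. A count of 0 allows up to 3 counts, or 0.0794 to 0.0876 CPM in these libraries. No S9 or S7 library reached the filter's minimum count of 10, so CA4 was tested only because of its S6 counts. Its differences from S6 are therefore a description.

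The CA4 log2 fold change was -5.51 for S9 against S6 (SE 1.44, edgeR adjusted p = 0.0415), and the S6 total was 46.1 times that of S9 per count sequenced (exact 95% interval 22.1 to 116, counting error only). S7 against S6 gave -5.31 (SE 1.42, edgeR adjusted p = 0.133), and S9 against S7 gave -0.21 (SE 1.45, edgeR adjusted p = 0.970), with 7 counts in S9 and 8 in S7. The exact 95% interval of the S7 total over that of S9, 0.359 to 3.68 around a ratio of 1.13, allows a difference either way at this depth.

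**Figure D2:**
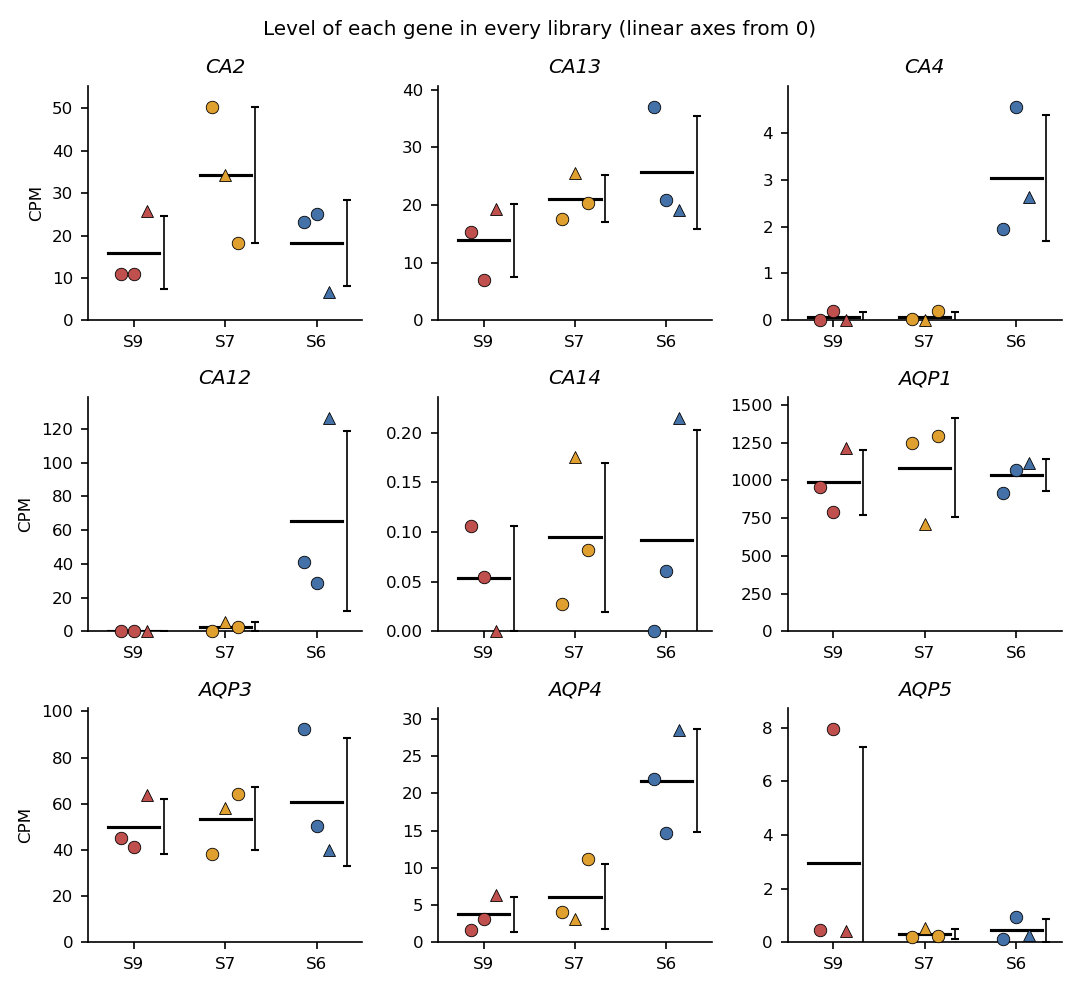
CPM of each gene in the 9 libraries, on linear axes that start at 0, with S9 at left, S7 in the middle and S6 at right of each panel. Points are libraries, triangles mark the 3 libraries with few mitochondrially encoded counts, horizontal lines are means and vertical bars are ± 1 SD (n = 3), cut at 0. CA4, CA12 and AQP4 have all 3 S6 libraries above the others, and AQP5 has a single high library, S9_2, at 7.94 CPM.

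The cytosolic enzymes CA2 and CA13 overlapped between all groups and were not called in any comparison. CA2 stood at 11.0, 10.9 and 25.8 CPM in S9_1, S9_2 and S9_4, at 50.2, 34.2 and 18.3 CPM in S7_2, S7_3 and S7_4, and at 23.3, 25.0 and 6.68 CPM in S6_2, S6_3 and S6_4. The lowest CA2 level, in S6_4, was thus in the library with the highest CA12 level. On the log2 scale S9 against S6 gave -0.20 for CA2 (SE 0.56, edgeR adjusted p = 0.846), S7 against S6 gave 0.90 (SE 0.57, edgeR adjusted p = 0.463) and S9 against S7 gave -1.11 (SE 0.57, edgeR adjusted p = 0.568).

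CA13 stood at 15.4, 6.96 and 19.4 CPM in S9_1, S9_2 and S9_4, at 17.5, 25.5 and 20.4 CPM in S7_2, S7_3 and S7_4, and at 37.0, 20.9 and 19.1 CPM in S6_2, S6_3 and S6_4. The groups overlapped, since S9_4 lay above S6_4. S9 against S6 gave -0.88 on the log2 scale (SE 0.39, edgeR unadjusted p = 0.0497 and adjusted p = 0.159). S7 against S6 gave -0.28 (SE 0.39, edgeR adjusted p = 0.769) and S9 against S7 gave -0.60 (SE 0.39, edgeR adjusted p = 0.619). CA13 and CA2 lie at the ends of a run of genes that holds CA1 and CA3 between them in the RefSeq annotation of assembly mOryCun1.1. Per length, CA1 was at most 0.477 FPKM, in S7_4. CA3 was at 3.57 FPKM in S9_2, above CA13 there (1.66 FPKM), and at most 0.908 FPKM in the other 8 libraries, below CA13 in each.

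CA14, the other transmembrane enzyme, was barely detected, with 4, 2 and 0 counts in S9_1, S9_2 and S9_4, 1, 6 and 3 counts in S7_2, S7_3 and S7_4, and 0, 2 and 8 counts in S6_2, S6_3 and S6_4. The total was 6 counts in S9 and 10 in each of S7 and S6. The S6 total was 1.68 times that of S9 per count sequenced, with an exact 95% interval of 0.553 to 5.62, so no difference was detectable at this depth.

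Among the tested aquaporins on the list, AQP4 alone had every S6 library above the rest. AQP4 is a water-selective channel known from glia, basolateral membranes of some epithelia and muscle, where the dystrophin complex anchors it. Levels were 1.69, 3.15 and 6.41 CPM in S9_1, S9_2 and S9_4, 4.15, 3.10 and 11.2 CPM in S7_2, S7_3 and S7_4, and 21.9, 14.7 and 28.5 CPM in S6_2, S6_3 and S6_4. The S9 and S7 libraries overlapped. The log2 fold change was -2.53 for S9 against S6 (SE 0.62, edgeR adjusted p = 0.0351), a level 5.79 times higher in S6. S7 against S6 gave -1.82 (SE 0.60, edgeR adjusted p = 0.177) and S9 against S7 gave -0.71 (SE 0.59, edgeR adjusted p = 0.691).

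AQP1, the most abundant of the 9 genes per length, overlapped between all groups. Its levels were 956, 792 and 1216 CPM in S9_1, S9_2 and S9_4, 1249, 710 and 1297 CPM in S7_2, S7_3 and S7_4, and 918, 1072 and 1117 CPM in S6_2, S6_3 and S6_4. The lowest and the highest library were both in S7. The log2 fold changes were -0.07 for S9 against S6, 0.07 for S7 against S6 and -0.14 for S9 against S7, each with an SE of 0.26 and edgeR adjusted p-values of 0.894, 0.932 and 0.877. All 11 endothelial markers had a positive log2 fold change in S9 against S6 (median 0.76), and 3 (ROBO4, CLDN5 and EMCN) were called higher in S9. Of the 11, 8 had an unadjusted p below 0.05 by edgeR, beside 5338 of all 17102 tested genes. The summed level of the 11 was 1260 to 2750 CPM in S9, 1080 to 2540 CPM in S7 and 1380 to 1630 CPM in S6. Red blood cell markers, of which 4 of 10 in the table could be tested and none was called by edgeR (1 with an unadjusted p below 0.05 in S9 against S6), summed to 603 to 755 CPM in S9, 309 to 546 CPM in S7 and 311 to 666 CPM in S6. The part of either cell type in the AQP1 level was not tested.

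AQP3 was at 45.3, 41.4 and 63.6 CPM in S9_1, S9_2 and S9_4, at 38.2, 58.1 and 64.2 CPM in S7_2, S7_3 and S7_4, and at 92.2, 50.6 and 39.9 CPM in S6_2, S6_3 and S6_4. The groups overlapped, and S6_2 alone lay above 65 CPM. The log2 fold changes were -0.28 for S9 against S6, -0.19 for S7 against S6 and -0.09 for S9 against S7, each with an SE of 0.33 and edgeR adjusted p-values of 0.606, 0.830 and 0.940.

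AQP5, known from the apical membrane of secretory glands and from lung, was scarce in 8 of the 9 libraries. It had 18, 290 and 16 counts in S9_1, S9_2 and S9_4, 7, 18 and 9 counts in S7_2, S7_3 and S7_4, and 5, 31 and 10 counts in S6_2, S6_3 and S6_4. S9_2, at 7.94 CPM, thus held most of the AQP5 reads, and the next library, S6_3, was at 0.939 CPM. The log2 fold change of S9 against S6, 2.72 (SE 1.24, edgeR adjusted p = 0.173), rested on S9_2, and without that library it was 0.02. S7 against S6 gave -0.47 (SE 1.22, edgeR adjusted p = 0.894) and S9 against S7 gave 3.19 (SE 1.27, edgeR adjusted p = 0.538), or 0.49 without S9_2. The flanking genes AQP2 and AQP6 had 0 counts in all 9 libraries, which allows up to 0.0908 CPM in a library. CA3, a muscle carbonic anhydrase, was also highest in S9_2, with 235 counts there.

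Set side by side, 3 of the 8 tested genes were called in S9 against S6, all lower in S9 (CA12, CA4 and AQP4), none in S7 against S6 and none in S9 against S7. Over all 17102 genes, 6.34% were called lower in S9 than in S6, 0.111% were called in either direction in S7 against S6 and 0% in S9 against S7. For S9 against S6, 4 of the 8 (CA12, CA4, AQP4 and CA13) had an unadjusted p below 0.05 by edgeR, beside 5338 of all 17102 genes. For S7 against S6, 3 of the 8 had an unadjusted p below 0.05, beside 2928 of all 17102 genes. There DESeq2 called 3 (CA12, CA4 and AQP4, all lower in S7) and limma-trend on FPKM called CA4. The number that DESeq2 called over all genes in S7 against S6 is not given here, so its 3 calls have no share beside them. For S9 against S7, 2 of the 8 (CA12 and AQP5) had an unadjusted p below 0.05 and DESeq2 and limma-trend called 0, and over all genes edgeR called 0, DESeq2 called 123 and 1575 had an unadjusted p below 0.05. All S9 libraries lay below all S6 libraries for 3 of the 8 genes, which was so for 17.0% of all tested genes. All S7 libraries lay below all S6 libraries for 3 of the 8, against 10.4% of all tested genes, and S9 and S7 did not lie apart for any of the 8, against 17.2% of all tested genes in either direction. S9 and S7 were both compared with the same S6 libraries, so the first 2 comparisons are not independent. The median log2 fold change of the 8 genes was -0.58 for S9 against S6, -0.38 for S7 against S6 and -0.40 for S9 against S7, beside -0.011, -0.010 and 0.001 over all tested genes. Because the genes were listed with these comparisons known, and CA4 passed the filter only through S6, nothing is read from these shares.

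**Figure D3:**
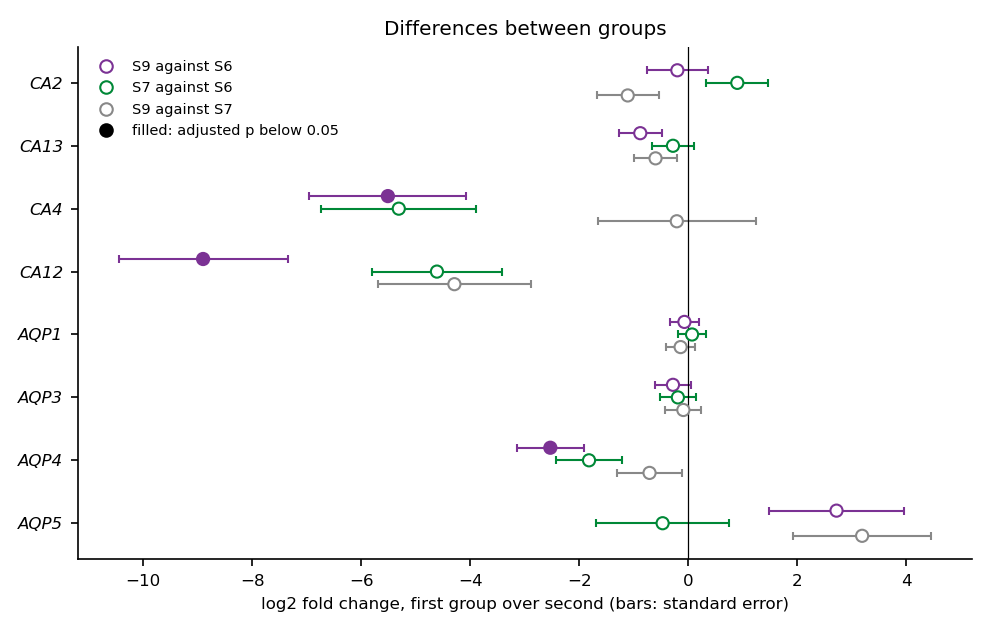
Log2 fold change of the 8 tested genes in the 3 comparisons, with S9 or S7 over the group named second, and bars of 1 SE. Filled points have an edgeR adjusted p below 0.05, which holds for CA4 (-5.51), CA12 (-8.90) and AQP4 (-2.53) in S9 against S6, and points of AQP1 and AQP3 lie close to 0.

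Markers of leukocytes were lower in S9 than in S6, and most secretory epithelium markers were lower too, with calls in both directions. All 8 neutrophil markers were called lower in S9 than in S6 (median log2 fold change -4.64), and their summed level was 439 to 763 CPM in S9, 2920 to 6540 CPM in S7 and 8350 to 15800 CPM in S6, with no marker at 0 in a whole group. Of 9 macrophage markers 4 (CD68, TYROBP, MSR1 and CD163) were called lower (median -1.08), with sums of 244 to 428 CPM in S9, 319 to 461 CPM in S7 and 595 to 1470 CPM in S6. Among 9 tested secretory epithelium markers 2 were positive and 7 negative in S9 against S6 (median -1.21). WFDC2, TFF1, TFF2 and AGR2 were called lower and SCGB3A1 higher, and MUC5AC was at 0 in S9 and S7. The sums overlapped, at 4320 to 9330 CPM in S9, 5890 to 8830 CPM in S7 and 2630 to 13800 CPM in S6. Urothelial markers also overlapped, at 1120 to 2010 CPM in S9, 1820 to 2440 CPM in S7 and 1430 to 3110 CPM in S6. Of 11 tested in S9 against S6, 4 were positive and 7 negative (median -0.62), and 6 had an unadjusted p below 0.05. KRT18 alone was called, higher in S9. UPK3B, at 0 in S6, had only 4 counts over all 9 libraries. Of 7 basal epithelium markers 5 were positive and 2 negative in S9 against S6 (median 0.28), and KRT15 and DST were called higher. Their sums were 2110 to 2570 CPM in S9, 1690 to 2410 CPM in S7 and 1220 to 1500 CPM in S6, where all libraries lay below the rest. Of 8 suprabasal squamous markers none was called by edgeR, 3 having an unadjusted p below 0.05. Striated muscle markers were scarce, at 14.2 to 29.6 CPM in S9, 8.30 to 16.2 CPM in S7 and 14.1 to 19.3 CPM in S6, and the fast myosins MYH1 and MYH4 were at 0 in all groups. Schwann cell and nerve markers, relevant to a glial channel, were at 493 to 629 CPM in S9, 182 to 497 CPM in S7 and 137 to 344 CPM in S6, with SOX10, NCAM1 and NGFR of 10 called higher in S9 than in S6. The part of these cell types in the levels of CA4, CA12 and AQP4 was not tested.

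The 3 calls in S9 against S6 depended on which libraries entered, as did the calls over all genes. With all libraries edgeR called 2115 genes in that comparison, against 0 without S9_1, 4 without S9_2, 89 without S6_4 and 7 in the 6 libraries with more mitochondrially encoded counts, so the marker and partner gene calls of this comparison rest on these libraries too. CA12 was no longer called without S6_4 (log2 fold change -7.98, edgeR adjusted p = 0.0599), S9_1 (-8.51 and 0.0915) or S9_2 (-8.34 and 0.0797), and without S9_4 it stayed called at -11.06. CA4 was not called when any of the 6 libraries of the comparison was left out, with values from -4.93 to -9.79 and edgeR adjusted p-values from 0.0524 to 0.130; the value of -9.79 is without S9_2, where both S9 libraries are at 0 and the fitted fold is no bound. AQP4 was not called without S6_2 (-2.53 and 0.0524), S6_3 (-2.74 and 0.0524), S6_4 (-2.28 and 0.0988), S9_1 (-2.17 and 0.120) or S9_2 (-2.42 and 0.116), and without S9_4 it was called at -3.15. In the 6 libraries with more mitochondrially encoded counts, 2 a group, CA12 was at -10.17 (edgeR adjusted p = 0.0653), CA4 at -5.04 (0.123) and AQP4 at -2.92 (0.0722), and the other 3 libraries are 1 a group and allow no test.

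**Figure D4:**
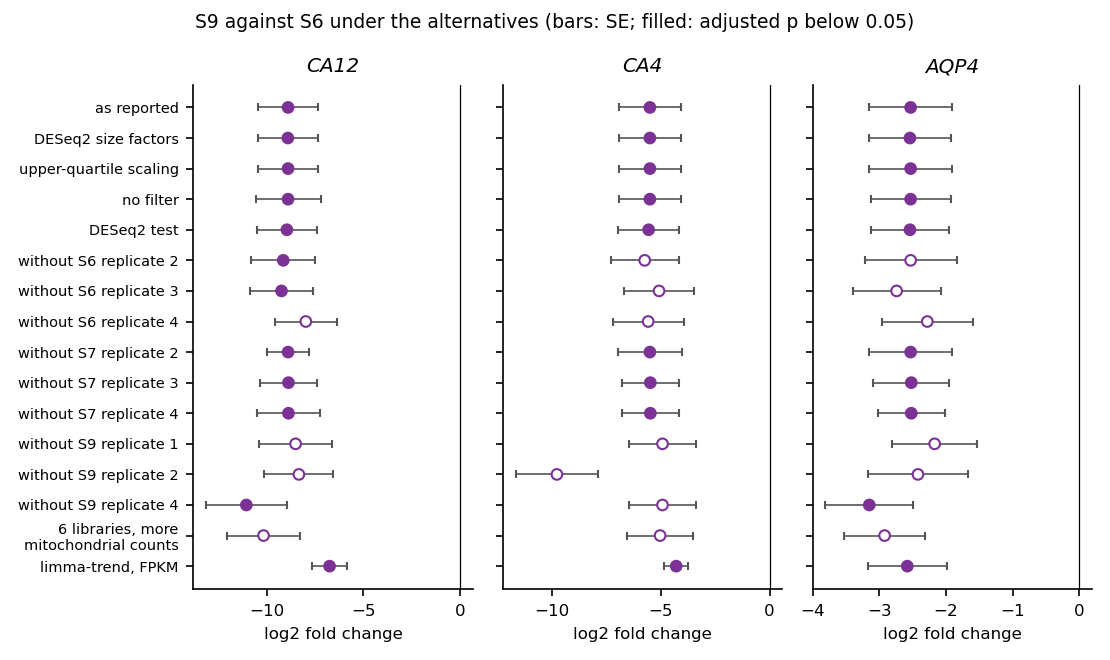
Log2 fold change of CA12, CA4 and AQP4 in S9 against S6, each row a setting (scaling, filter, test, a library left out, or the 6 libraries with more mitochondrially encoded counts), with bars of 1 SE and filled points where the adjusted p was below 0.05. All points shown lie below 0, and of the settings shown those that are not filled have fewer libraries. The setting with a block for replicate number is not shown. With that block and all libraries, CA12 (edgeR adjusted p = 0.0836), CA4 (0.215) and AQP4 (0.0569) were not called.

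edgeR called no gene of the rest of both families in any comparison. The table holds 10 other carbonic anhydrases, of which 6 were tested, 3 with a positive and 3 with a negative log2 fold change in S9 against S6 (median 0.15). CA5B levels were 31.2, 32.9 and 34.4 CPM in S9_1, S9_2 and S9_4, 43.9, 33.5 and 24.0 CPM in S7_2, S7_3 and S7_4, and 26.6, 26.3 and 13.3 CPM in S6_2, S6_3 and S6_4 (0.57 on the log2 scale, SE 0.29, edgeR adjusted p = 0.220 for S9 against S6), and the S9 and S6 libraries did not overlap. In S9 against S6, CA3 and CA8 had an unadjusted p below 0.05, DESeq2 called CA3 alone (adjusted p = 0.0223) and limma-trend called 0. CA8, a relative without enzyme activity, had 4.02, 8.08 and 6.49 CPM in S9, against 20.1, 6.06 and 15.3 CPM in S6 (-1.16, SE 0.46, edgeR adjusted p = 0.125). CA9, a membrane enzyme known as a target of the hypoxia response in humans, averaged 1.90 ± 0.679 CPM in S9, 2.41 ± 1.69 CPM in S7 and 1.24 ± 1.11 CPM in S6 (SD, n = 3 each), and S9 against S6 gave 0.61 on the log2 scale (SE 0.77, edgeR adjusted p = 0.633). Of 8 other aquaporins 3 were tested, AQP9, AQP10 and AQP11, and their highest level was 3.51 CPM, for AQP10 in S6_3.

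In lists of genes that work with these families, 13 of 82 tested genes were called in S9 against S6, 8 higher and 5 lower, beside 6.02% higher and 6.34% lower over all genes. None was called by edgeR in S7 against S6 or in S9 against S7, where DESeq2 called 5 and 0, limma-trend called 0 in each and 12 genes in each had an unadjusted p below 0.05. Over all 17102 genes, 2928 in S7 against S6 and 1575 in S9 against S7 had an unadjusted p below 0.05. All 13 calls were lost without S6_4, S9_1 or S9_2 and in the 6 libraries with more mitochondrially encoded counts. Of 14 proton and lactate transport genes 3 were called lower (list median -0.16). SLC16A3, which exports lactate with a proton, averaged 2.08 ± 1.17 CPM in S9, 8.44 ± 6.94 CPM in S7 and 61.1 ± 11.2 CPM in S6 (SD, n = 3 each), and S9 against S6 gave -4.87 on the log2 scale (SE 0.71, edgeR adjusted p = 0.0146). ATP6V1A, a subunit of the vacuolar proton pump, was at -1.02 (edgeR adjusted p = 0.0164) and BSG, the chaperone that brings lactate carriers to the membrane, at -0.65 (0.0450), a call that was lost without the filter (0.0580) and by limma-trend (0.0587). Of 12 bicarbonate transporters only SLC4A3, an anion exchanger, was called, higher in S9 (1.29, edgeR adjusted p = 0.0248; list median -0.23).

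Among 22 salt, urea and water transport genes the potassium-chloride cotransporter SLC12A4 (log2 fold change 0.87, edgeR adjusted p = 0.0332) and the chloride channel ANO1 (2.17 and 0.0363) were called higher in S9 than in S6, and the list median was -0.02. The AQP4 anchoring list holds genes of the dystrophin complex or related to them, and also TRPV4, a cation channel that is not part of that complex. Of its 11 genes 5 were called higher in S9 and none lower by edgeR, with a median of 1.13, whereas AQP4 itself was lower. TRPV4 was the 1 gene of the list with a lower mean in S9, at 5.25 CPM against 11.5 CPM in S6. DESeq2 called 7 higher and 1 lower. Utrophin (UTRN) averaged 246 ± 57.7 CPM in S9, against 100 ± 18.5 CPM in S6 (SD, n = 3 each; log2 fold change 1.30, edgeR adjusted p = 0.0248). Dystrophin (DMD) averaged 86.1 ± 22.9 CPM in S9, against 27.3 ± 6.28 CPM in S6 (1.66, edgeR adjusted p = 0.0284), and the syntrophin SNTB2 had a log2 fold change of 1.05 (edgeR adjusted p = 0.0310). Smooth muscle, which holds the dystrophin complex too, moved the same way, with 8 of 10 markers called higher and summed levels of 7050 to 13400 CPM in S9, 3570 to 11700 CPM in S7 and 2160 to 3830 CPM in S6; its part in the anchor genes was not tested. Without S6_3 1 gene of the list was called higher and TRPV4 lower, and without S7_4 3 were called higher. In the 6 libraries with more mitochondrially encoded counts, where none was called, the list median was 1.21.

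Of 15 hypoxia response genes, tested because CA9 and CA12 are known hypoxia targets in human cells, 2 were called lower in S9 than in S6 and none higher (median -0.31). These were BNIP3, a mitochondrial protein of mitophagy, at -0.77 (edgeR adjusted p = 0.0240) and the glycolytic enzyme PGK1 at -0.85 (0.0491), a call that was lost under upper-quartile scaling (0.0515) and without the filter (0.0538). VEGFA was at -0.18 (0.712) and the transcription factor subunit HIF1A at -0.57 (0.295).

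**Figure D5:**
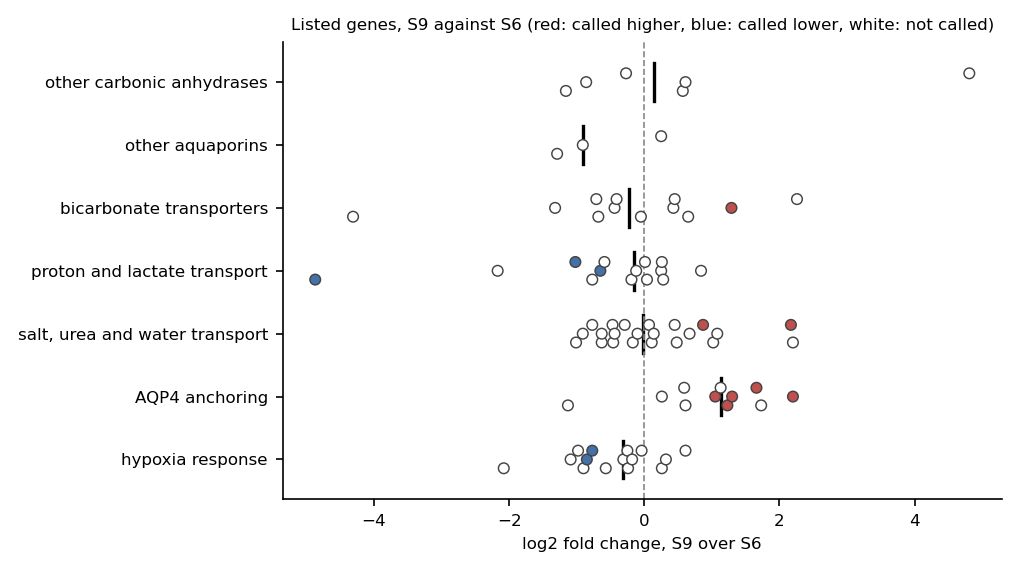
Log2 fold change of S9 over S6 for the tested genes of 7 lists, 1 point a gene, with a black line at each list's median and a dashed line at the median of all tested genes (-0.011). The AQP4 anchoring list lies mostly above 0 (median 1.13), the proton and lactate list has SLC16A3 far to the left at -4.87, and the other carbonic anhydrases and aquaporins hold no called gene.

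Genes with the pattern most like each gene were sought among all tested genes with a symbol, by the root mean square gap between log2 levels centred on each gene's mean over the 9 libraries. For CA12, whose own spread was 3.90, the nearest were NOX1 (gap 1.07), DUOXA2 (1.25) and IL17C (1.30). For CA4, with a spread of 2.46, they were ACOD1 (0.78), CSF3R (0.83), which is also on the neutrophil marker list, and GPR84 (0.88). For AQP4, with a spread of 1.32, they were TGM5 (0.40), KCTD4 (0.41) and CCDC88B (0.43). CA2 (spread 0.86) lay nearest to PLEKHD1 (0.48), CA13 (spread 0.61) to ETV2 (0.23) and AQP1 (spread 0.28) to CCDC57 (0.15). AQP3 (spread 0.39) lay nearest to BLTP3B (0.18) and AQP5 (spread 1.52) to PDE6H (0.87). Among the 8 genes themselves the closest pair was CA13 and AQP3 (0.44), a gap wider than the spread of AQP3 itself (0.39). CA12 was nearest to CA4 (2.53), a gap far wider than that to NOX1.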

How the data were processed

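Polyadenylated RNA of rabbit urethral tissue was sequenced from column-purified total RNA with a SMARTER kit for mRNA, per the labels' protocols. The deposited counts are whole reads per gene, made with fastp, HISAT2 and HTSeq per the submitters' processing notes, which give no versions. The sources used here give no build, annotation or strand setting, so overlapping or antisense genes cannot be told apart. The authors also deposited FPKM for the same libraries, which was used to compare genes of different length. Symbols are those of the table, and 515 of 12867 rows with a LOC number took one from RefSeq (mOryCun1.1).

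Genes passing filterByExpr (minimum count 10, minimum total 15) were fitted in 1 edgeR 4.0.16 quasi-likelihood model (R 4.3.3) of 3 groups with TMM scaling, and adjusted by Benjamini-Hochberg over 17102 genes. CPM uses the TMM-scaled library size. Each standard error is the fold change divided by the root of F. Alternatives were DESeq2 1.42.0, limma 3.58.1 on log2(FPKM + 0.1), other scalings, no filter, a block for replicate number, and libraries left out. The fitting methods were run on simulated data with all libraries and with less spread than these data, whose biological coefficient of variation was 41.9%. Fits with fewer libraries were not simulated, and no call here rests on the simulation. The genes and lists were chosen with earlier results of these data known. Named were all 9 genes, called genes of a list (at most 3), and the 3 nearest genes by pattern, of which the first alone is given for 5 genes. CA1, CA3, CA5B, CA8, CA9, CA11, AQP2, AQP6, AQP9, AQP10, AQP11, TRPV4, VEGFA, HIF1A and the cell type markers were named after their values were seen.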

Additional observations from a re-analysis of the deposited data

How the results depend on the processing

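The count of the 9 genes called in S9 against S6 was 3 under both other scalings, without the filter, by DESeq2 and by limma-trend, 0 to 3 with a library left out, and 0 in the 6 libraries with more mitochondrially encoded counts and with the replicate block. For S7 against S6 it was 3 by DESeq2 and 1 by limma-trend (CA4), and 0 to 0 with a library left out. For S9 against S7 it was 0 throughout. Of the 82 listed partner genes, 25 were called by DESeq2, 0 with the replicate block, 0 in the 6 libraries and 0 to 16 with a library left out in S9 against S6, and 5 by DESeq2 in S7 against S6; these alternatives for the lists were chosen after seeing the data. The groups share replicate numbers, and the labels do not say whether equal numbers mark pairs. Correlations of same-numbered libraries ran from -0.0649 to 0.138, and 4 of the 6 S7 and S6 libraries were nearest to their own number. These values do not decide whether the libraries are paired. In S9 against S6 the block moved the SE of AQP4 from 0.62 to 0.34, of CA12 from 1.55 to 1.74 and of CA4 from 1.44 to 1.88. With the block and all libraries, CA12 (edgeR adjusted p = 0.0836), CA4 (0.215) and AQP4 (0.0569) were not called in S9 against S6. With it, 16 genes in all were called in S9 against S6 and 1 in S7 against S6, and CA2 in S9 against S6 was at 0.50 and CA4 in S9 against S7 at 0.44.

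Of 384 alternative values for single genes 336 kept direction and call, 20 lost and 4 gained a call and 24 changed sign, all of the last in differences that were not called. With a library left out, S9 against S6 ran from -0.73 to 0.10 for CA2, -0.23 to 0.07 for AQP1 and -0.50 to 0.15 for AQP3. S7 against S6 ran from -0.46 to 0.08 for CA13, -0.07 to 0.31 for AQP1, -0.42 to 0.24 for AQP3 and -1.0 to 0.66 for AQP5. S9 against S7 ran from -4.48 to 1.94 for CA4, -0.36 to 0.02 for AQP1, -0.29 to 0.07 for AQP3 and -1.33 to 0.06 for AQP4. The cause of these changes was not tested. CA4, CA14 and AQP5 are limited by depth, with 335, 26 and 404 counts over all libraries.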

Other observations

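CA11, a carbonic anhydrase relative without enzyme activity, was present or nearly absent in a way that crossed the groups. It had 1, 83 and 311 counts in S9_1, S9_2 and S9_4, 384, 0 and 49 counts in S7_2, S7_3 and S7_4, and 4, 2 and 466 counts in S6_2, S6_3 and S6_4. Each group held at least 1 library with 4 counts or fewer. The split did not follow the mitochondrially encoded counts, since S7_3, one of the 3 libraries with few of them, had 0 counts and S9_4 and S6_4 had 311 and 466. The log2 fold change of S9 against S6 was -0.27 (SE 2.15, edgeR adjusted p = 0.951).

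CA3 was at 30, 235 and 7 counts in S9_1, S9_2 and S9_4, at 60, 0 and 1 counts in S7_2, S7_3 and S7_4, and at 1, 4 and 4 counts in S6_2, S6_3 and S6_4. All S9 libraries lay above all S6 libraries, and the gene was not called by edgeR (log2 fold change 4.81, SE 1.96, adjusted p = 0.131). Without S9_2 the log2 fold change was 2.48, and DESeq2 called the gene with all libraries (adjusted p = 0.0223). NEB, a striated muscle gene, was called higher in S9 than in S6 (2.72, SE 0.71, edgeR adjusted p = 0.0406). It was the only call among 5 tested striated muscle markers, of which 3 were positive and 2 negative (median 1.04). Of the 5, 2 had an unadjusted p below 0.05 by edgeR, beside 5338 of all 17102 tested genes. RYR1 (9.64 CPM in S9, 4.68 CPM in S6) and TTN (0.508 and 0.174 CPM) had higher means in S9. ACTA1 (1.94 CPM in S9, 2.51 CPM in S6) and MYBPC1 (5.40 and 8.11 CPM) had lower means in S9. The summed levels of the list overlapped between S9 and S6.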
